A study of Mus musculus with 14 samples.

Results

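The cytosolic ribosomal protein genes are the protein-coding genes of the mouse count table whose names have the form Rpl or Rps and a number, with Rplp0, Rplp1, Rplp2 and Rpsa, and without the kinase genes whose names start with Rps6k. Of 54532 genes in the table, 80 matched the names and 76 had at least 1000 counts summed over the 14 libraries. These 76 members comprised 46 genes of the large subunit, among them the 3 P-stalk genes, and 30 genes of the small subunit. The members just inside the minimum were Rpl24 with 1028 counts, Rpl13a with 4529 and Rpl7a with 25870. Just outside it were Rps10 with 426 counts, Rpl3l with 11 and Rpl39l with 5, and Rpl10l had 0 counts.

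Scraped mucosa of the ileum was sequenced from 14 male mice, 7 WT and 7 IKO, with 1 library per mouse, after 15 weeks on a high-fat diet (HFD). WT mice carried floxed NCoR1 alleles without Cre. IKO mice carried the same floxed alleles and a Cre recombinase under the villin promoter, which is active in intestinal epithelial cells, so that NCoR1, a corepressor of nuclear receptors, was deleted there and not in the other cells of the mucosa. All mice were young adults when the HFD began, and the study lists C57BL/6J mice without saying whether the floxed line was on that background. The comparison asks whether the mRNAs of the translation machinery differed between the genotypes.

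A ribosome joins a large and a small subunit, each built of ribosomal RNA and many small proteins, most of them needed in equal numbers. Their mRNAs are among the most abundant in dividing and secreting cells. Most begin with a cytosine followed by a run of pyrimidines, the terminal oligopyrimidine (TOP) motif, through which the kinase mTOR and the RNA-binding protein LARP1 set how much of the mRNA is translated or stored. Crypt cells, which renew the epithelium, and Paneth and goblet cells, which secrete, are known for high protein synthesis.

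Pyrimidine runs were looked for near the gene starts because they are the sequence feature that these mRNAs are known to share. RefSeq promoter entries on GRCm38.p6 were at hand for 56 of the 76 members (73.7%). A run of at least 8 bases made only of C and T on the gene's strand, between 40 bases before and 50 bases after the RefSeq start, was present in 47 of these 56 members (83.9%) and in 9561 of 26742 genes with an entry (35.8%). The letters CCGGAAG, a core bound by ETS factors, were found on either strand of the whole entry in 23 of the 56 members (41.1%) and in 2674 of the 26742 genes. A match says only that the letters are there. The sequences below, each 30 bases on the gene's strand, show the longest run in capitals (the first of 2 equally long ones in Rps27l) for a member that passed the test (Rpl39), 2 with large fold changes (Rpl38, Rps27l), a P-stalk gene (Rplp2) and the phosphorylated protein of the small subunit (Rps6). They lie at chrX:37085173-37085202, chr11:114668568-114668597, chr9:66946054-66946083, chr7:141447636-141447665 and chr4:86857349-86857378, and Rpl39 and Rps6 are on the minus strand. Counted from the RefSeq start, the runs begin at 36 (Rpl39), -2 (Rpl38), -22 (Rps27l), -5 (Rplp2) and -1 (Rps6). The run of Rpl39 reaches the end of the stretch searched, and that of Rps27l lies wholly before the start. A run is thus not shown to be a TOP motif.
Rpl39: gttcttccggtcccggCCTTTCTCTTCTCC
Rpl38: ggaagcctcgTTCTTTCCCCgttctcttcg
Rps27l: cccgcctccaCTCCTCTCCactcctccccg
Rplp2: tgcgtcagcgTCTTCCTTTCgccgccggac
Rps6: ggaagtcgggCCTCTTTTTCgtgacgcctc

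Between 14749669 and 21557468 counts were assigned per library. The share of mitochondrially encoded counts was 50.3% for IKO 4, 23.9% for WT 3 and 3.49% to 10.3% for the other 12 libraries. Ncor1 was lower in IKO mice (log2 fold change -1.41, SE 0.18, Benjamini-Hochberg (BH) adjusted p = 0.00051 from the quasi-likelihood F-test of edgeR) with no overlap between genotypes. Enterocyte markers were high in every library, with a summed level of 28221 to 108831 CPM (counts scaled to a common library size) in WT and 54675 to 99986 CPM in IKO mice over 12 genes. Smooth muscle genes summed to 10855 CPM in WT 4, the highest of the WT libraries, whose median was 22.6 CPM. The libraries IKO 2, IKO 4 and WT 3 bear on the results below. The spread, the median fold change and the calls of the members are therefore given with and without some or all of them. Subunit and P-stalk medians, groups by shared sequence and the lists of other translation genes are given only with all 14 libraries.

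The level of the ribosomal protein mRNAs differed widely between mice of the same genotype. Of all counts, the 76 members together took 1.82% at the lowest, 3.09% at the median and 4.26% at the highest in WT mice. In IKO mice their share was 1.92% at the lowest, 2.45% at the median and 6.47% at the highest. The highest share was that of IKO 2, and the other 6 IKO libraries, with at most 2.64%, lay inside the WT range. The groups overlapped and the IKO median was below the WT median. When the mitochondrially encoded counts were taken out of the total, the medians were 3.22% in WT and 2.62% in IKO mice, and IKO 4 rose to 4.93%, above the highest WT share of 4.50%. In bulk mucosa, fewer cells of a type and less RNA per cell cannot be told apart.

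On the TMM scale used for the tests, which equalizes the bulk of genes between libraries, the order of the genotypes turned. The level of the median member, in log2 CPM, was 7.72 at the lowest, 8.25 at the median and 8.71 at the highest in WT mice. In IKO mice it was 7.95, 8.34 and 9.80. IKO 2 was highest and IKO 4 followed with 9.09, both above the WT range, while the other 5 IKO libraries lay between 7.95 and 8.43, inside it. WT 5 and WT 6 were lowest, so that the highest library exceeded the lowest 4.23-fold. IKO 2 was the highest of the 14 libraries for 71 of 76 members, whereas it was the highest for 15.4% of all 13846 genes tested. WT 5 or WT 6 was the lowest library for 55 members (39 and 16), against 4.30% of all genes for WT 5 and 3.55% for WT 6.

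**Figure D1:**
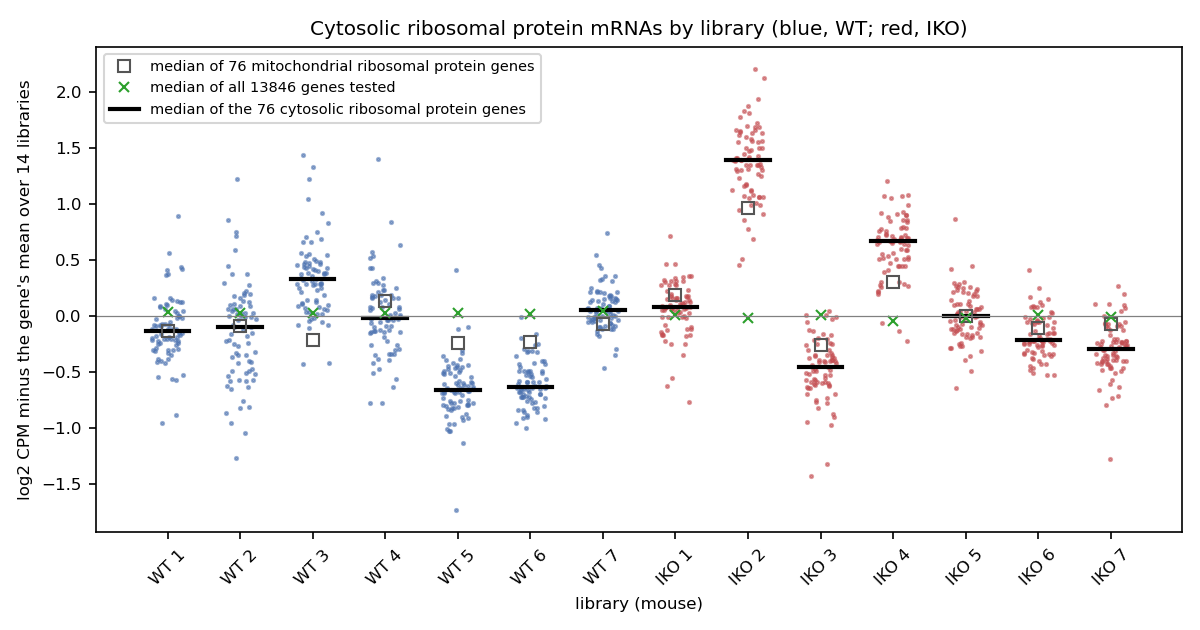
Each dot is 1 of the 76 cytosolic ribosomal protein genes in 1 library, as log2 CPM (TMM scale) minus that gene's mean over the 14 libraries, with black bars at the median, open squares at the median of 76 mitochondrial ribosomal protein genes and green crosses at the median of all 13846 genes tested. The whole set moved together, by 1.39 in IKO 2, 0.66 in IKO 4, -0.66 in WT 5 and -0.63 in WT 6, while the median of all genes lay between -0.043 (IKO 4) and 0.044 (WT 7).

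The spread between mice was mostly shared by the members. Within WT mice, the SD of log2 CPM of a member was 0.41 at the median, against 0.50 for all genes tested. It was 0.45 for 400 other nuclear genes of like level, defined below. Within IKO mice the SD of a member was 0.68 at the median, against 0.47 for all genes and 0.41 for the genes of like level. Without IKO 2 the IKO value was 0.41 for the members and 0.41 for all genes, and without IKO 2 and IKO 4 it was 0.25 and 0.31. When the median of the members was subtracted in each library, the SD fell to 0.22 in WT and 0.20 in IKO mice. The value subtracted came from the members themselves, which favours a fall, and its size was not set beside that of another gene set. Members with the largest SD within WT were Rpl24 (1.03), Rpl21 (0.89) and Rpl17 (0.79), and within IKO they were Rps27 (1.16), Rps12 (0.98) and Rpl36 (0.96).

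Other gene groups were set beside the members in the libraries that stood apart. In IKO 2, the 76 mitochondrial ribosomal protein genes tested lay 0.97 above their 14-library mean at the median, and in IKO 4 they lay 0.31 above it. Elongation and release factors (9 genes) lay 0.64 above it in IKO 2 and the factors of ribosome biogenesis (54 genes) 0.32 above. Paneth cell markers (7 genes) were at 1.53 in IKO 2 and 1.26 in IKO 4, with summed levels of 566 to 5200 CPM in WT and 1157 to 5685 CPM in IKO mice. They were also at 1.05 in WT 1 and 0.55 in IKO 3, where the members lay at -0.14 and -0.46. In WT 4 they were at -1.73, with the members at -0.016. Crypt and proliferation markers (12 genes) were at 0.17 in IKO 2 and -0.075 in IKO 4. Markers of other cell types also moved in these libraries, in part by more than the members. Smooth muscle genes (6 tested) were at 3.58 in IKO 2, while they were higher still in WT 4 (8.36) and IKO 1 (4.76), where the members lay at -0.016 and 0.082. In IKO 4, enterocyte markers (12 genes) were at -1.27, goblet cell markers (7 genes) at -1.53 and tuft cell markers (4 genes) at -1.28. In WT 3, where the members lay at 0.32, plasma and B cell genes (8 genes) were at 2.94 and goblet cell markers at -1.36. The part of cell composition in the level of the members was not tested.

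Levels in IKO 2 also differed by gene length. The gene models of the members had a median of 1754.5 bases, against 4023.5 bases for all genes tested. Among 400 other nuclear genes whose mean level lay between the first and the third quartile of the members (like-level genes below), the 6 under 1 kb lay 1.49 above their mean in IKO 2, those of 1 to 2 kb 0.59 above, those of 2 to 4 kb 0.32 above, and those of at least 4 kb at -0.060. The 11 members under 1 kb lay 1.65 above, those of 1 to 2 kb 1.40, those of 2 to 4 kb 1.31 and the 6 of at least 4 kb 1.29 above. In IKO 4 the like-level genes of these classes, from shortest to longest, lay at 0.30, 0.32, 0.36 and 0.092. They lay at -0.43, -0.12, -0.084 and 0.18 in WT 5, and at -0.48, -0.10, -0.092 and 0.13 in WT 6. The part of length in these values was not tested.

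Between the genotypes, 1 of the 76 members passed the edgeR quasi-likelihood F-test at a BH-adjusted p under 0.05 over the 13846 genes, as higher in IKO mice, and 0 passed as lower. Over all genes tested, 4.38% passed as higher and 4.28% as lower, so that the share of members called was below the background in both directions. At an unadjusted p under 0.05, 11 members were higher and 0 lower, against 11.9% and 18.5% of all genes. For 0 of 76 members did every IKO library lie above every WT library, or every one below (1.83% and 1.26% of all genes). With DESeq2, 5 members passed as higher and 0 as lower, at 6.41% and 7.36% of all genes.

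The fold changes nevertheless lay on 1 side. The log2 fold change was above 0 for 71 of 76 members, for 361 of the 400 like-level genes and for 43.5% of all genes. Its median was 0.41 over the members, a 1.33-fold difference, 0.44 over the like-level genes and -0.091 over all genes. The lean to 1 side was thus shared by other genes of this level. The SE of single members was between 0.22 and 0.46. Large subunit members had a median of 0.39, small subunit members 0.45 and the 3 P-stalk genes 0.63. By the median over libraries instead of the fitted mean, 47 members were higher and 29 lower in IKO mice, a split that was not counted over all genes.

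**Figure D2:**
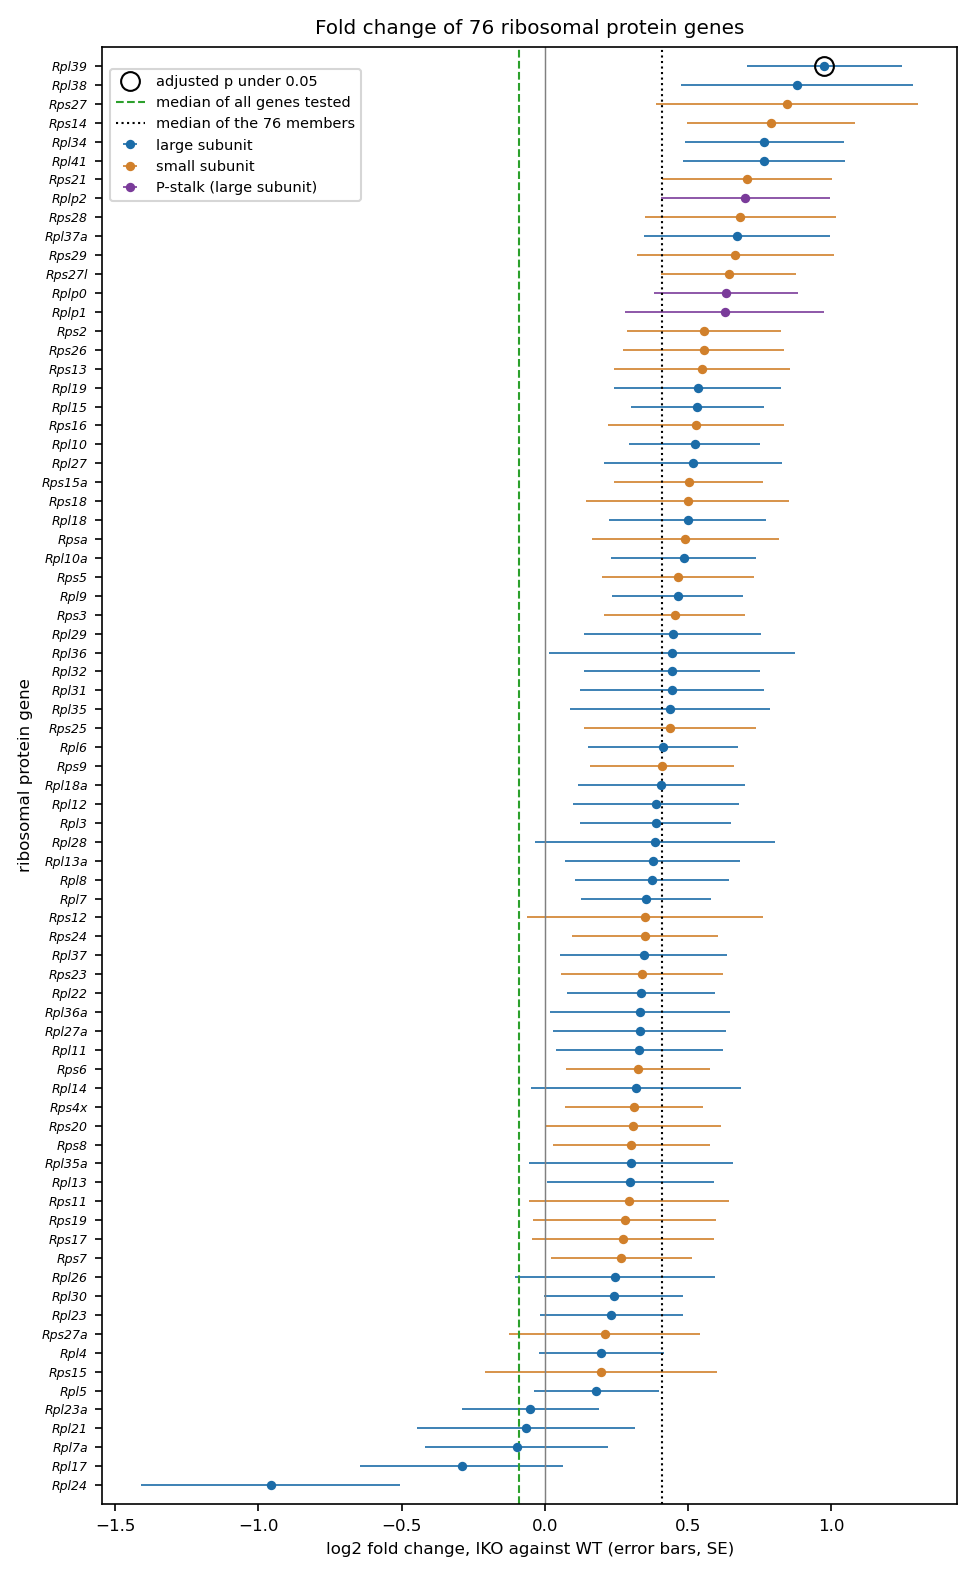
Points are the log2 fold changes (IKO against WT) of the 76 members from the edgeR fit with TMM factors and 7 mice per genotype, bars are 1 SE, and the circled gene, Rpl39, had an adjusted p under 0.05. Most points lie right of 0 (dotted median 0.41, dashed median of all genes -0.091). Without IKO 2 the medians were 0.13 for the members and -0.12 for all genes.

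Of the libraries left out singly, IKO 2 changed this shift most. IKO 2 and IKO 4 had the highest levels of the members, so leaving them out was bound to lower the median. WT 5 and WT 6, the libraries with the lowest levels, were kept in those fits. Without WT 5 the median of the members was 0.34, and without WT 6 it was 0.35. Without IKO 2 the median of the members was 0.13 with 59 above 0, and without IKO 2, IKO 4 and WT 3 it was 0.0085 with 39 above 0. The medians of all genes were then -0.12 and -0.15. The members thus lay 0.25 and 0.15 above all genes, against 0.50 with all libraries. The like-level genes had a median of 0.44 with all libraries, and 0.44 again without these 3 libraries. Of these 400, 77 passed as higher and 1 as lower with all 14 libraries, and 56 and 1 without the 3. When libraries were scaled to their counts outside the mitochondrially encoded genes, with no TMM factors, the medians of the members and of all genes both fell. They were then 0.066 for the members, with 45 members above 0, and -0.42 for all genes, so that the distance between the medians was 0.49, against 0.50 on the TMM scale. Under that scaling 0 members passed, where 2.18% of all genes were called higher and 23.2% lower. Limma-voom with sample quality weights gave a median of 0.22. It called 1 member higher and 0 lower, where 7.17% of all genes were called higher and 6.47% lower.

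**Figure D3:**
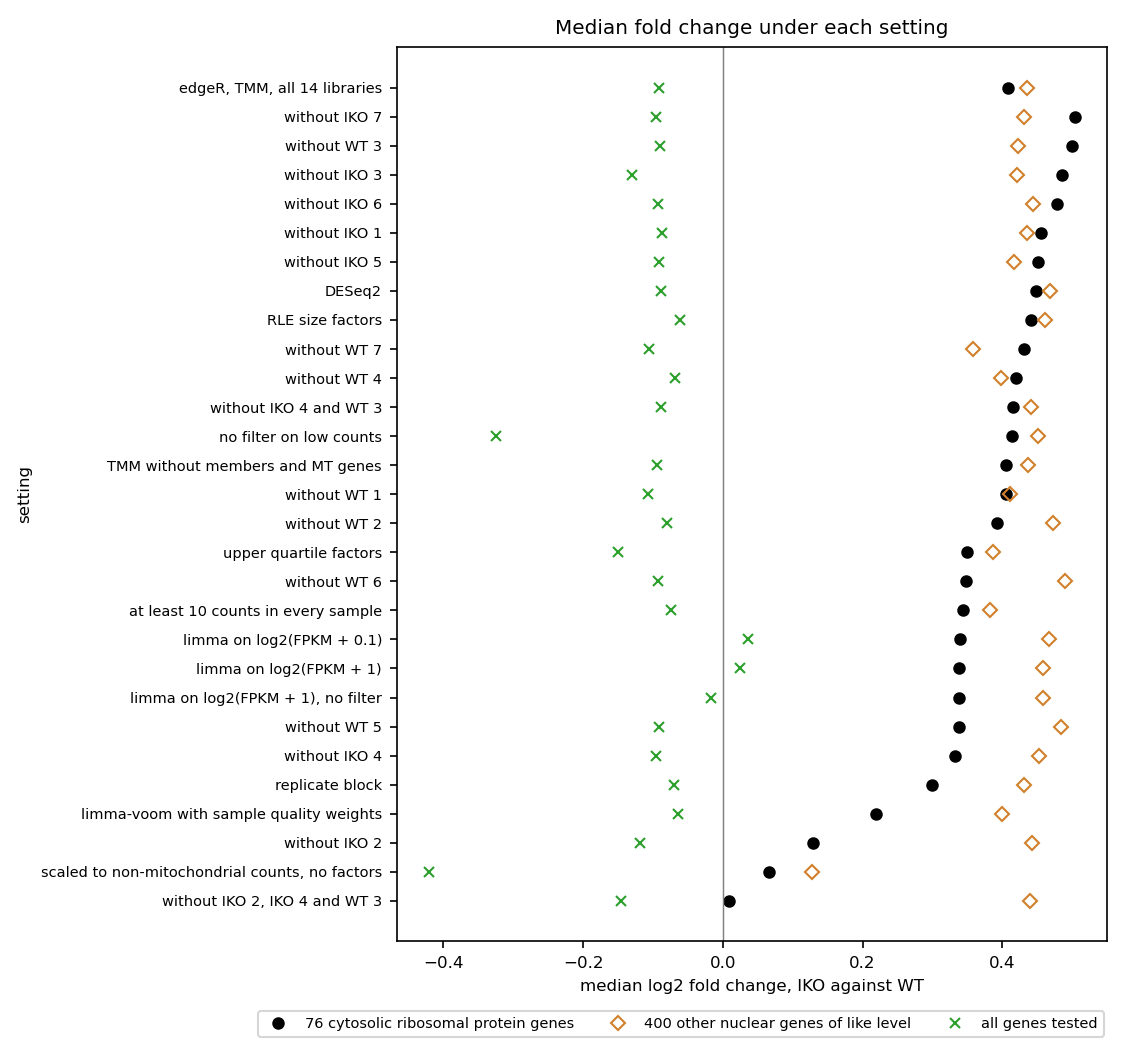
Median log2 fold change (IKO against WT) of the 76 members (black), of 400 other nuclear genes of like level (open diamonds) and of all genes tested (green crosses) under the fit with all 14 libraries and each of 28 other settings. The members ran from 0.0085 without IKO 2, IKO 4 and WT 3 to 0.50 without IKO 7, while the like-level genes lay between 0.36 and 0.49 except for 0.13 under scaling to non-mitochondrial counts, where the medians of the members (0.066) and of all genes (-0.42) were lower as well.

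Rpl39, on chromosome X from 37082520 to 37085402, encodes a small protein that lines the exit tunnel of the large subunit. It was the 1 member that passed the edgeR test as higher in IKO mice. Its level was 141.6 CPM at the lowest, 165.2 at the median and 194.5 at the highest in WT mice. In IKO mice it was 173.5, 273.3 and 714.3 CPM. All 7 IKO libraries lay above the WT median, and the groups overlapped through IKO 3, which was below WT 1 and WT 7. The log2 fold change was 0.98 (SE 0.27, adjusted p = 0.0394 by edgeR with BH adjustment), a 1.97-fold difference. Without IKO 2 it was 0.66 (adjusted p = 0.0533 in the same test), and over 28 other settings the adjusted p ran from 0.00646 to 0.115 and was under 0.05 in 9. The call was lost without any single one of WT 1, 3, 4, 5, 6 and 7 and IKO 1, 2, 4 and 5. Of its 100-base windows of transcript, 1.75% also occurred in another gene.

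Relative to the other ribosomal protein mRNAs, Rpl39 did not overlap between genotypes. Its log2 level minus that of the median member of the same library was -1.34 to -0.56 in WT and -0.53 to -0.14 in IKO mice, a mean difference of 0.48. It was the 1 member of 76 for which this held. After the same subtraction, 0.123% of all genes lay wholly higher and 1.16% wholly lower, against 1.83% and 1.26% before it. The subtraction takes out spread that the members share but adds that spread to other genes. These shares are therefore not a like background for a member. At the other end, Rpl24 had a mean difference of -1.18 and overlapped. These values describe the members and carry no test, since the gene was picked out by them.

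The P-stalk genes, whose products recruit elongation factors to the large subunit, had log2 fold changes of 0.63 (Rplp0), 0.63 (Rplp1) and 0.70 (Rplp2). Rplp0 was at 588.5 CPM at the lowest, 808.6 at the median and 1076.6 at the highest in WT mice, and at 854.0, 1180.5 and 2113.4 CPM in IKO mice. All 7 IKO libraries exceeded the WT median, and 3 of them lay within the WT range. The adjusted p was 0.110 for Rplp0, 0.230 for Rplp1 and 0.128 for Rplp2 by edgeR with BH adjustment. Rplp1 had the highest level per gene length of all members, with a mean of 1638 FPKM.

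Among the other large subunit members, Rpl38 (0.88, SE 0.40), Rpl34 (0.77, SE 0.28) and Rpl41 (0.77, SE 0.28) had the next largest log2 fold changes. Rpl41, which encodes the smallest protein of the ribosome, was at 426.1 CPM at the lowest, 537.0 at the median and 980.0 at the highest in WT mice, and at 575.1, 884.6 and 2101.3 CPM in IKO mice. All 7 IKO libraries lay above the WT median, but WT 3 was above 4 of them. The adjusted p was 0.155, 0.0848 and 0.091 for Rpl38, Rpl34 and Rpl41 by edgeR with BH adjustment, and by DESeq2 Rpl34 and Rpl41 passed, with adjusted p of 0.0396 and 0.0388. Rpl34 and Rpl41 did not pass under any of the other 27 settings, where the adjusted p of the former reached 0.321 and of the latter 0.341.

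Rpl5 and Rpl11, which leave the ribosome with the small RNA of the large subunit to bind the p53 regulator Mdm2, had log2 fold changes of 0.18 (SE 0.22) and 0.33 (SE 0.29). Rpl10, which is added late in the cytoplasm and readies the large subunit for translation, was at 0.52 (SE 0.23, adjusted p = 0.138 by edgeR with BH adjustment). Its WT libraries lay between 390.8 and 576.8 CPM and its IKO libraries between 464.6 and 1189.8 CPM. For Rpl10, 91.6% of the 100-base windows of transcript occurred in another gene, so that its counts depend on how shared reads were assigned.

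In the small subunit, Rps14 had a log2 fold change of 0.79 (SE 0.29) and Rps27 of 0.85 (SE 0.46). Rps14, known for its loss in a human anemia with a chromosome deletion, was at 282.5 CPM at the lowest, 427.6 at the median and 482.9 at the highest in WT mice, and at 391.0, 562.0 and 1602.7 CPM in IKO mice. IKO 3, IKO 6 and IKO 7 lay within the WT range. The adjusted p was 0.091 by edgeR with BH adjustment and 0.0431 by DESeq2, and it was under 0.05 in this 1 of 28 other settings. Of the 100-base windows of Rps27, 98.4% occurred in another gene, among them Rps27rt, a near copy that was counted apart and had a log2 fold change of 0.42 (SE 0.47).

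Rps27l, the paralog of Rps27 that is known as a p53 target, had no window in common with another gene. It was at 86.6 CPM at the lowest, 93.2 at the median and 132.0 at the highest in WT mice, and at 88.5, 127.9 and 312.2 CPM in IKO mice. Apart from IKO 3, every IKO library lay above 6 of the 7 WT libraries. The log2 fold change was 0.64 (SE 0.24, adjusted p = 0.088 by edgeR with BH adjustment and 0.0478 by DESeq2). The paralogs Rpl3l, Rpl10l and Rpl39l were too low to compare.

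**Figure D4:**
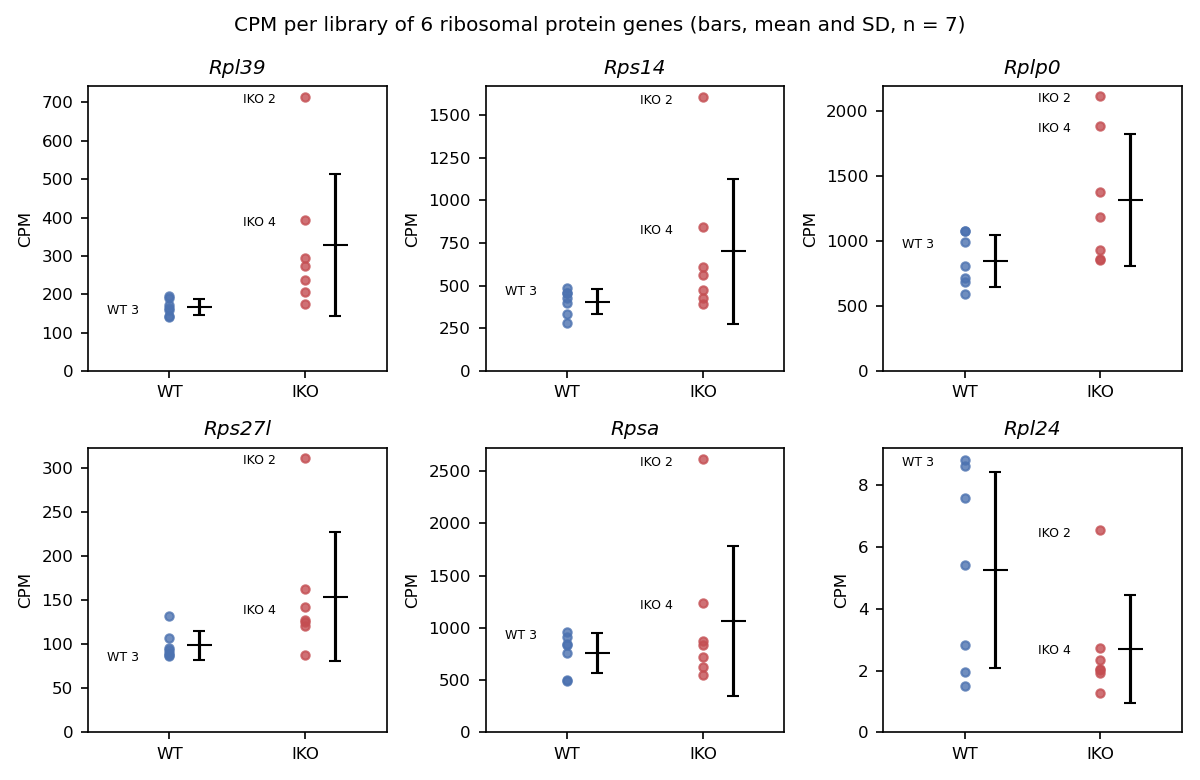
CPM per library (TMM scale, axes from 0) of 6 ribosomal protein genes in 7 WT (blue) and 7 IKO (red) mice, with bars at the mean and SD and the libraries IKO 2, IKO 4 and WT 3 named. IKO 2 is the highest point in every panel but that of Rpl24, where WT 3 is highest at 8.84 CPM.

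Rpsa, which encodes a small subunit protein also known as the laminin receptor, was at 492.3 CPM at the lowest, 838.4 at the median and 958.3 at the highest in WT mice. In IKO mice it was at 548.7, 838.7 and 2613.7 CPM, so that the medians were close and only IKO 2 and IKO 4 lay above the WT range. Rps6, whose protein is phosphorylated when mTOR signalling is active, had a log2 fold change of 0.33 (SE 0.25). Rps27a, made as a fusion with ubiquitin, was at 0.21 (SE 0.33). Rps12 (0.35, SE 0.41), Rps15 (0.20, SE 0.40) and Rpl36 (0.45, SE 0.43) had negative log2 fold changes without IKO 2, of -0.21, -0.25 and -0.019. Rps15a was at 0.50 (SE 0.26), with 7 of 7 IKO libraries above the WT median.

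The 5 members with a log2 fold change below 0 were all of the large subunit, and 0 of them passed the test. They were Rpl24 (-0.96, SE 0.45), Rpl17 (-0.29, SE 0.35), Rpl7a (-0.098, SE 0.32), Rpl21 (-0.065, SE 0.38) and Rpl23a (-0.051, SE 0.24). Rpl24 was at 1.52 CPM at the lowest, 5.41 at the median and 8.84 at the highest in WT mice, and at 1.26, 2.05 and 6.54 CPM in IKO mice. WT 2, WT 3 and WT 4 were high and the groups overlapped (adjusted p = 0.165, edgeR with BH adjustment). Of the exon bases of Rpl24, 47.0% overlap another annotated gene on the same strand, and for Rpl13a, the next lowest at 8.54 FPKM, the share was 35.4%. For Rpl17, Rpl7a, Rpl21 and Rpl24, the other genes that share 100-base windows numbered 16, 37, 40 and 4.

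By level per gene length, 62 of 76 members had a mean of at least 100 FPKM (counts per kilobase of gene model, scaled between libraries by the authors), with a median of 190.3. The highest were Rplp1, Rps15 (922.5), Rpl36 (822.8) and Rpl41 (705.6), and the lowest were Rpl24 (3.79), Rpl13a (8.54), Rps15a (36.5) and Rpl21 (36.8). Rows named as ribosomal protein pseudogenes, which can take reads of their parent genes, numbered 298 and held 339283 counts against 7210961 on the members. Per 100 counts on the members they held between 4.33 and 5.83 in WT and between 4.03 and 4.80 in IKO mice. The largest were Rps12-ps3 and Rpl17-ps10, with log2 fold changes of 0.52 (SE 0.30) and 0.51 (SE 0.32). Rps10, which missed the minimum, had a pseudogene row, Rps10-ps2, with 29736 counts.

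When the members were split by the share of their 100-base windows found in other genes, the median log2 fold change was 0.45 for the 22 members with under 25%, 0.40 for the 32 with 25% to 60%, and 0.42 for the 22 with at least 60%. All 22 members with the least sharing had a log2 fold change above 0, and of the 5 members below 0, 1 was in the middle group and 4 in that with the most sharing. Ribosomal proteins that the name rule leaves out had a median of 0.33 over 7 genes tested, and 0 passed in edgeR, with 1 higher and 0 lower at an unadjusted p under 0.05. Of these, Fau, which encodes a small subunit protein made as a ubiquitin-like fusion, was at 0.53 (SE 0.31), and Rps3a1 was at 0.33 (SE 0.25). Rack1, the signalling scaffold on the small subunit, was at 0.50 (SE 0.27).

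The rest of the translation machinery was compared on the same scale, with all 14 libraries only. Of 76 mitochondrial ribosomal protein genes tested, 2 passed as higher and 0 as lower, with a median log2 fold change of 0.31. Shares for these lists stand against 4.38% of all genes called higher and 4.28% called lower. The 2 mitochondrial ribosomal protein genes that passed were Mrpl43 (0.63, SE 0.17) and Mrpl45 (0.72, SE 0.19), named here after their values were seen. Of 29 initiation factors, 1 passed as higher and 0 as lower (median 0.20), namely Eif4h, a helper of the helicase that unwinds mRNA leaders, at 259.3 ± 27.8 CPM (SD, n = 7) in WT and 374.1 ± 44.6 CPM (SD, n = 7) in IKO mice (log2 fold change 0.53). Of 9 elongation and release factors, 0 passed in either direction (median 0.37), and Eef2, the translocase, was at 0.71 (SE 0.21). Of 15 other mRNAs with a TOP motif, 0 passed (median 0.31), and this list shares at least Eef2 with the elongation and release factors. In the same edgeR fit, the numbers higher and lower at an unadjusted p under 0.05 were 19 and 0 for the mitochondrial ribosomal proteins, 6 and 1 for initiation, 3 and 1 for elongation and release, and 4 and 2 for the other TOP mRNAs, where 11.9% of all genes were higher and 18.5% lower.

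The factors that build ribosomes did not have a positive median. Of 54 ribosome biogenesis factors tested, 0 passed as higher and 2 as lower, with 16 above 0 and a median of -0.15, against -0.091 for all genes. Nop58, a core protein of the particles that methylate ribosomal RNA, had a log2 fold change of -0.88 (SE 0.23), and Mdn1, an ATPase of large subunit assembly, one of -1.31 (SE 0.39). Of 19 genes of RNA polymerase I and its factors, 0 passed as higher and 1 as lower, Taf1b (-1.21, SE 0.33), with a median of -0.085. Of 18 regulators of ribosomal protein synthesis, 0 passed as higher and 1 as lower, Rps6kb1 (-0.69, SE 0.19), which encodes a kinase of the Rps6 protein, with a median of -0.11. At an unadjusted p under 0.05 in edgeR, 2 biogenesis factors were higher and 9 lower, and 0 were higher and 3 lower in each of the other lists, against 11.9% and 18.5% of all genes. The difference between these lists and the ribosomal protein genes was not tested.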

How the data were processed

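The members and lists were chosen with earlier results of these data known. Per the submitters' processing notes and the paper's methods, reads of NEBNext libraries were aligned with HISAT2 2.0.5 (mm10) and counted per gene with featureCounts 1.5.0-p3, and DESeq2 1.16.1 was used. Strandedness and the handling of reads that match several genes are not given in the sources used here. The deposited count table holds whole, unscaled numbers. The deposited FPKM equal counts per kilobase divided by a DESeq2-type size factor times 1 constant, as tested on the values, and were used only for levels per length and in alternatives.

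Genes passing filterByExpr (13846) were compared with edgeR 4.0.16 (TMM factors, glmQLFit and glmQLFTest, no covariates, 7 against 7 libraries, R 4.3.3), with Benjamini-Hochberg adjustment at 0.05 over all of them. All 76 members passed the filter. The SE is the log2 fold change divided by the root of F. The method was tested on simulated counts. The p-values measure the spread between mice. CPM in the text use the TMM factors, and log2 CPM add a prior count of 2. The labels state no pairing of the mice by replicate number. Same-numbered deviations correlated from -0.31 to 0.23, which cannot exclude a pairing.

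The genes named are members with an adjusted p under 0.05, the 6 highest and 6 lowest log2 fold changes, the 4 highest and 4 lowest mean FPKM, the 3 largest SDs within each genotype, paralog pairs, 9 members of known function, members at the count minimum, and, of the other lists, called genes or the most abundant. Shared sequence was measured as 100-base windows of the longest coding transcript in GENCODE M21 (GRCm38), in which 74 of 76 members have the coordinates of the file. Alternatives were DESeq2 1.42.0, RLE and upper quartile factors, TMM without the members and the mitochondrially encoded genes, 2 other filters, limma 3.58.1 with trend on log2 FPKM with pseudocounts of 1 and 0.1, the replicate block, each library left out, and both libraries IKO 4 and WT 3 left out. Leaving out IKO 2, IKO 4 and WT 3, scaling to non-mitochondrial counts, and limma-voom with sample quality weights were added after the data were seen.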

Additional observations from a re-analysis of the deposited data

Results flagged for a closer look

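In 62 groups of 7 mice, the gap between the extreme library and its nearest neighbour was set against the range of the group, and 22 groups exceeded Dixon's critical value of 0.568, where chance gives about 1 in 20, or 3 of these 62. The groups share libraries and genes that move together, so the flags are not independent.

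IKO 2 stood apart as the highest of the IKO libraries in 18 of them. Its share of counts on the members was 6.47%. Its levels in CPM were 714.3 for Rpl39, 711.9 for Rpl5, 239.0 for Rpl7a, 6.54 for Rpl24, 2101.3 for Rpl41, 831.2 for Rpl34, 775.1 for Rpl38, 47.4 for Rpl13a and 2494.0 for Rplp1 in the large subunit, and 935.8 for Rplp2. In the small subunit they were 1602.7 for Rps14, 1031.9 for Rps27, 1633.2 for Rps15, 1158.1 for Rps12, 312.2 for Rps27l, 2613.7 for Rpsa and 306.8 for Rps27a.

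WT 3 was the highest WT library for the share of mitochondrially encoded counts (23.9%), for Rpl7a (192.9 CPM) and for Rpl13a (24.6 CPM). IKO 4 had 50.3% of its counts on mitochondrially encoded genes, the highest of the IKO libraries.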

How the results depend on the processing

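The 0 members called lower held under all 28 other settings. The 1 member called higher became 5 with DESeq2, and 0 with upper quartile factors, without a filter on low counts, with limma on log2 FPKM under both pseudocounts and without its filter, with scaling to non-mitochondrial counts, without both IKO 4 and WT 3, and without IKO 2, IKO 4 and WT 3. With the replicate block it was 0 as well, the median of the members 0.30, and 362 genes were called in place of 1200. The labels state no pairing by number, and 1 of 7 matched its own number best. Leaving out 1 library gave 0 to 1 members called, a median of 0.13 (without IKO 2) to 0.50, and 59 to 74 members above 0. The count above 0 was 39 without IKO 2, IKO 4 and WT 3 and 45 under scaling to non-mitochondrial counts, which moved the median of all genes from -0.091 to -0.42. The median SD within WT was 0.57 when mitochondrially encoded counts were left out, and that within IKO ran from 0.41 (without IKO 2) to 0.74. In each case the cause was not tested.

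Of the named members, signs turned as follows. Leaving out 1 library, log2 fold changes ran from -0.48 to 0.12 for Rpl7a, -0.29 to 0.24 for Rpl21, -0.15 to 0.049 for Rpl23a, -0.019 to 0.59 for Rpl36, -0.25 to 0.39 for Rps15, -0.21 to 0.50 for Rps12 and -0.13 to 0.41 for Rps27a. Without IKO 4 and WT 3, Rpl7a was at 0.095 and Rpl21 at 0.16. Rpl21 was also at 0.062 and 0.067 with limma on log2 FPKM (pseudocounts 1 and 0.1, and 0.062 without the filter), 0.069 with the replicate block and 0.23 with limma-voom, where Rps27a was at -0.059. Without IKO 2, IKO 4 and WT 3, the values were -0.039 for Rpl5, -0.011 for Rpl13a, -0.26 for Rpl36, -0.30 for Rps15, -0.37 for Rps12, -0.020 for Rpsa, -0.089 for Rpl11 and -0.15 for Rps27a. Under scaling to non-mitochondrial counts, which lowered the median of all genes, they were -0.19 for Rpl5, -0.13 for Rps15, -0.024 for Rps6, -0.0096 for Rpl11 and -0.16 for Rps27a. None of these passed the test.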
